A study of Zea mays with 6 samples.

Results

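The core of the plant circadian clock was followed through 6 maize genes: the morning regulators lhy1 and cca1, the evening genes gigantea 1 and gigantea 2, and the evening complex genes elf3.1 and elf3.2. The 6 genes were chosen by identifier, out of 46430 genes listed in each library, and all 6 had enough reads to be tested. Leaf RNA (the third leaf of Zea mays seedlings) was sequenced from the inbred lines W9706 and B73, both on day 7 of drought, with 3 libraries for each line. B73, marked WT in its labels, is the line of the maize reference genome. Seedlings of both lines were raised in soil in beakers, with days of 14 h light and 10 h dark at 26°C, to the 3-leaf stage. No watered libraries were analysed here, so droughted W9706 was compared with droughted B73 alone, and the labels give no hour of harvest.

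In plants the clock is a loop of genes that switch each other off in turn over the day. LHY and CCA1 are related MYB transcription factors whose transcripts peak around dawn and which repress genes of the evening. GIGANTEA, a large protein that peaks later in the day, acts on protein turnover and links the clock to flowering. ELF3 is the scaffold of the evening complex, which represses transcription after dusk. These roles are best known from Arabidopsis, and each is followed here through a pair of maize genes.

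The morning genes were lower in W9706 than in B73, GIGANTEA did not pass the test in either copy, and of the ELF3 genes elf3.2 alone was higher in W9706. Across the 6 genes, 2 fell, 1 rose and 3 did not pass the threshold of an adjusted p of 0.05 (edgeR quasi-likelihood test, Benjamini-Hochberg over 22135 genes). Over all genes tested, 34.2% passed, 15.2% as higher and 19.0% as lower in W9706, so 3 calls among 6 genes do not set this group apart from the other genes. This balance rests on the scaling: with library size alone 8165 genes were higher and 2622 lower, where TMM gave 3367 higher and 4197 lower. The median log2 fold change was -0.15 for the 6 genes and 0.01 for all genes tested. Levels are CPM (a gene's reads as a proportion of the library) scaled by TMM, a factor that corrects for the makeup of each library, and they are not divided by transcript length, so they are compared between lines and not between genes.

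**Figure D1:**
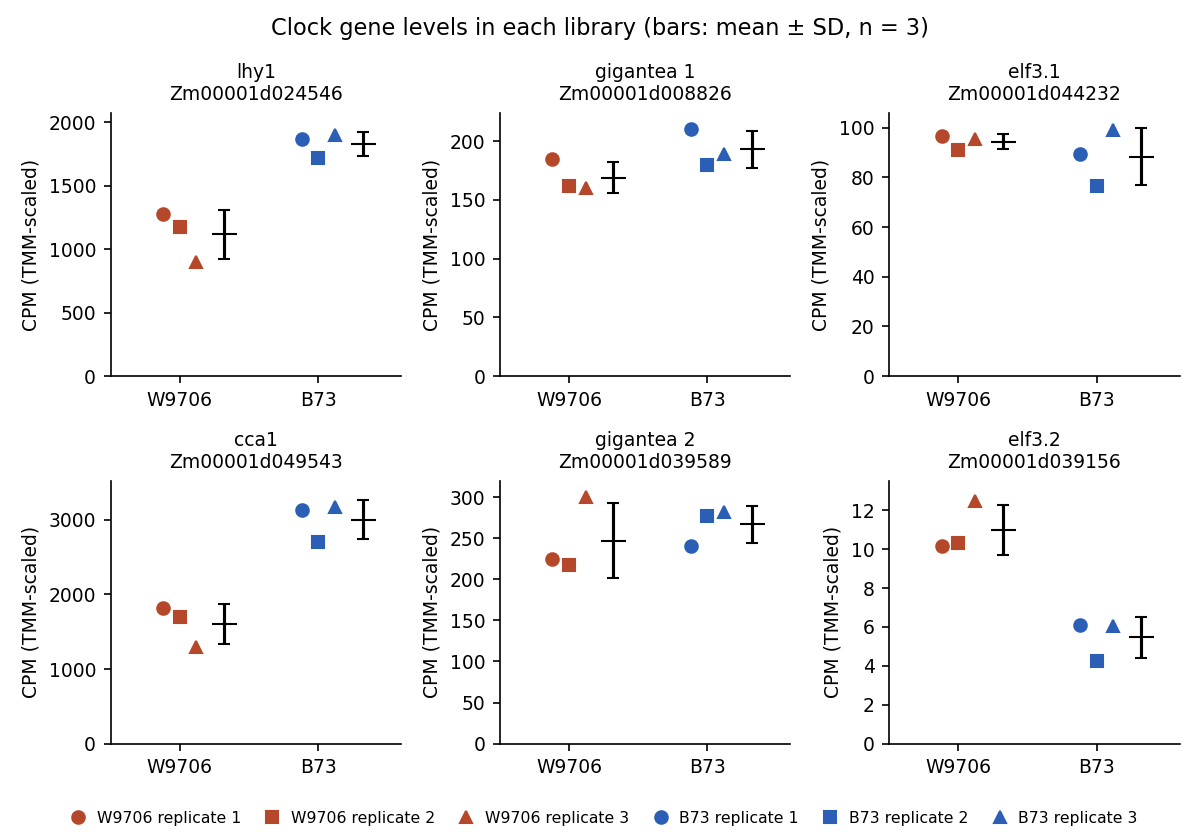
Level of each clock gene (y axis, CPM scaled by TMM) in the 3 W9706 libraries (left, red) and the 3 B73 libraries (right, blue), with symbols for replicates and black bars for the mean and SD. The lines do not overlap for lhy1, cca1 and elf3.2, and overlap for gigantea 1, gigantea 2 and elf3.1.

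lhy1 (Zm00001d024546) had 1276, 1179 and 901 CPM in W9706 replicates 1 to 3, against 1871, 1723 and 1897 CPM in B73 replicates 1 to 3. Every W9706 library lay below every B73 library, and W9706 replicate 3 was the lowest of all. The mean level was 1119 ± 195 CPM in W9706, against 1830 ± 94.1 CPM in B73 (SD, n = 3 each). edgeR gave a log2 fold change of -0.71 (SE 0.17) and an adjusted p of 0.0139, which puts the W9706 level at 61.1% of the B73 level. These levels rest on 31791 to 35481 reads in a W9706 library and 35690 to 45057 in a B73 library.

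cca1 (Zm00001d049543), the partner of lhy1, had 1814, 1694 and 1297 CPM in W9706 replicates 1 to 3, against 3129, 2709 and 3175 CPM in B73 replicates 1 to 3. The lines again did not overlap, with W9706 replicate 3 at the bottom. The mean level was 1602 ± 270 CPM in W9706, against 3004 ± 257 CPM in B73 (SD, n = 3 each). edgeR gave a log2 fold change of -0.91 (SE 0.18) and an adjusted p of 0.0064. Its level in W9706 was 53.3% of that in B73. Among all genes tested, 10.95% had a lower log2 fold change than cca1 and 14.9% a lower one than lhy1, so falls of this size were common in this contrast.

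The balance of the 2 morning genes was compared within each library. Counts of cca1 per count of lhy1 were 1.42, 1.44 and 1.44 in the W9706 libraries and 1.67, 1.57 and 1.67 in the B73 libraries. This ratio was nearly constant within W9706, and each W9706 library lay below each B73 library. The log2 ratio differed by -0.19 between W9706 and B73, and the exact two-sided permutation test gave a p of 0.1, below which 3 against 3 libraries cannot go (adjusted p of 0.12 over the 6 ratios compared).

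gigantea 1 (Zm00001d008826) had 185, 162 and 160 CPM in W9706 replicates 1 to 3, against 211, 179 and 189 CPM in B73 replicates 1 to 3. The lines overlapped, since W9706 replicate 1 lay above B73 replicate 2. Its log2 fold change was -0.19 (95% interval -0.45 to 0.07) with an edgeR adjusted p of 0.222. The log2 fold changes of lhy1 and cca1 lie below this interval. The 95% interval of lhy1, -1.10 to -0.32, overlaps it, while that of cca1, -1.32 to -0.49, does not. Setting intervals side by side is not a test of a difference between genes.

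gigantea 2 (Zm00001d039589) had 224, 217 and 300 CPM in W9706 replicates 1 to 3, against 241, 277 and 282 CPM in B73 replicates 1 to 3. W9706 replicate 3 was the highest of all 6 libraries, while the other 2 W9706 libraries were the lowest. The log2 fold change was -0.11 (95% interval -0.46 to 0.24) with an edgeR adjusted p of 0.608. The 2 copies were not held in a fixed balance within either line. Counts of gigantea 2 per count of gigantea 1 were 1.22, 1.34 and 1.87 in the W9706 libraries and 1.14, 1.55 and 1.49 in the B73 libraries, and the lines overlapped (log2 ratio 0.07 higher in W9706, exact permutation p of 0.9, adjusted p of 0.9 over 6 ratios). Without W9706 replicate 3 this difference was -0.12 and without B73 replicate 1 it was -0.07.

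elf3.1 (Zm00001d044232), the more highly counted ELF3 gene, had 96.7, 90.9 and 95.4 CPM in W9706 replicates 1 to 3, against 89.3, 76.5 and 99.2 CPM in B73 replicates 1 to 3. B73 held both the lowest and the highest library. Its log2 fold change was 0.09 (95% interval -0.16 to 0.35) with an edgeR adjusted p of 0.543.

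elf3.2 (Zm00001d039156) had 10.1, 10.3 and 12.5 CPM in W9706 replicates 1 to 3, against 6.10, 4.23 and 6.06 CPM in B73 replicates 1 to 3. All W9706 libraries lay above all B73 libraries. The mean level was 10.98 ± 1.29 CPM in W9706, against 5.46 ± 1.07 CPM in B73 (SD, n = 3 each). edgeR gave a 2.01-fold difference, a log2 fold change of 1.01 (SE 0.18), and an adjusted p of 0.00436. It was the least counted of the 6 genes, with 282 to 440 reads in a W9706 library and 94 to 147 in a B73 library. Counts of elf3.2 per count of elf3.1 were 0.105, 0.114 and 0.131 in the W9706 libraries and 0.0684, 0.0552 and 0.0611 in the B73 libraries. The lines did not overlap in this ratio, which was 1.89-fold higher in W9706 (exact permutation test, p of 0.1, which is the lower limit here, and 0.12 adjusted).

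The lines did not overlap in 3 of the 6 genes, the 3 that passed the test, and in 50.6% of all genes tested. The scaling of the libraries sets the zero from which such changes are read. With library size alone the median of all genes moved to a log2 fold change of 0.29, and lhy1 stood at -0.43 (edgeR adjusted p of 0.0678), cca1 at -0.62 (0.0211), elf3.1 at 0.38 (0.0187) and elf3.2 at 1.29 (0.00115). gigantea 1 and gigantea 2 turned to 0.09 and 0.17 with that scaling, neither past the threshold. Relative to the median of all genes lhy1 stood at -0.72, cca1 at -0.92 and elf3.2 at 1.00. A change of scaling moves all genes by nearly the same amount, so these relative values are nearly equal under any scaling by construction and do not bear on the call of lhy1.

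**Figure D2:**
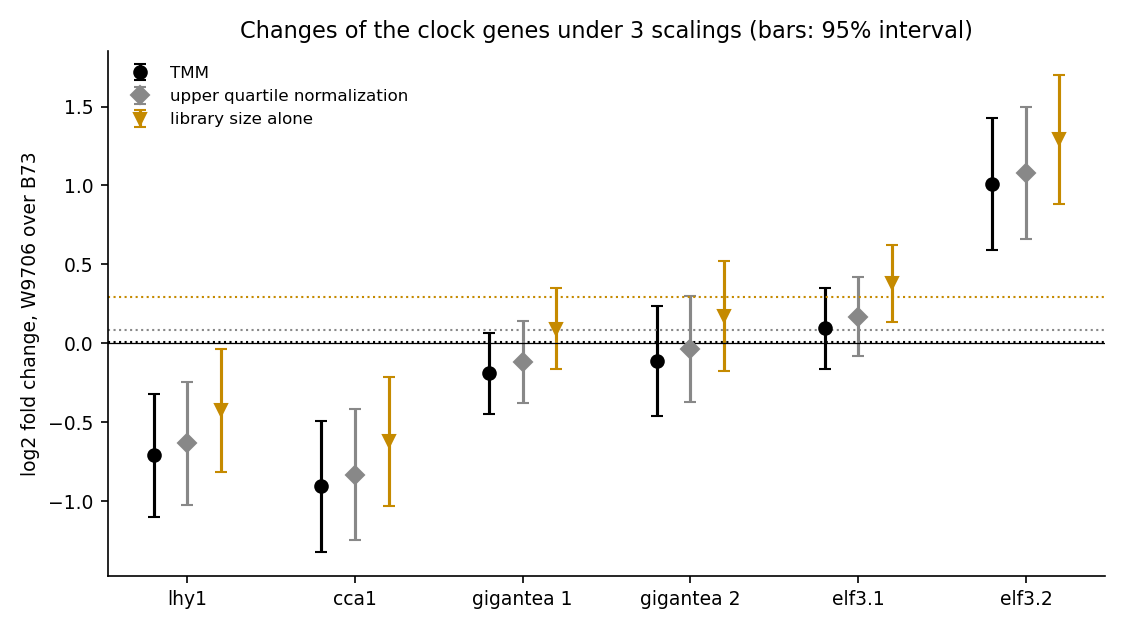
Log2 fold change of W9706 over B73 (y axis) for each clock gene under TMM (black circles), upper quartile normalization (grey diamonds) and library size alone (ochre triangles), with 95% intervals, and dotted lines at the median of all genes tested under each scaling. lhy1 and cca1 lie below zero and elf3.2 above it under all 3 scalings, while both GIGANTEA genes change sign with library size alone.

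Ratios between morning and evening genes within a library do not depend on the scaling, since both terms come from the same library. Summed counts of lhy1 and cca1 per summed count of the GIGANTEA genes were 7.56, 7.58 and 4.78 in W9706 replicates 1 to 3, against 11.1, 9.70 and 10.8 in B73 replicates 1 to 3. The lines did not overlap, and W9706 replicate 3 stood well below the other W9706 libraries. The mean log2 ratio was 2.70 ± 0.38 in W9706 and 3.39 ± 0.10 in B73 (SD, n = 3 each), a difference of -0.69, or 61.8% of the B73 ratio. The exact two-sided permutation test gave a p of 0.1, its lower limit, or 0.12 when adjusted over 6 ratios. Without W9706 replicate 3 the difference was -0.47.

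The morning genes were set against ELF3 in the same way. Summed counts of lhy1 and cca1 per summed count of the ELF3 genes were 28.9, 28.4 and 20.4 in the W9706 libraries and 52.4, 54.9 and 48.2 in the B73 libraries. The mean log2 ratio was 4.68 ± 0.28 in W9706 and 5.69 ± 0.10 in B73 (SD, n = 3 each), so that the W9706 ratio was 49.4% of the B73 ratio (exact permutation p of 0.1, the smallest possible, 0.12 adjusted). The lines did not overlap here either. Counts of GIGANTEA per count of ELF3 were 3.83, 3.74 and 4.27 in the W9706 libraries and 4.73, 5.66 and 4.47 in the B73 libraries, a log2 difference of -0.32 without overlap (exact permutation p of 0.1, 0.12 adjusted, and a p of 0.2 without W9706 replicate 1, W9706 replicate 2 or B73 replicate 2). Summed ELF3 counts are mostly those of elf3.1. When each gene of a pair weighed the same, by the mean of log2 counts, the difference was -0.72 for GIGANTEA to ELF3 and -1.38 for LHY/CCA1 to ELF3, and -0.66 for LHY/CCA1 to GIGANTEA.

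**Figure D3:**
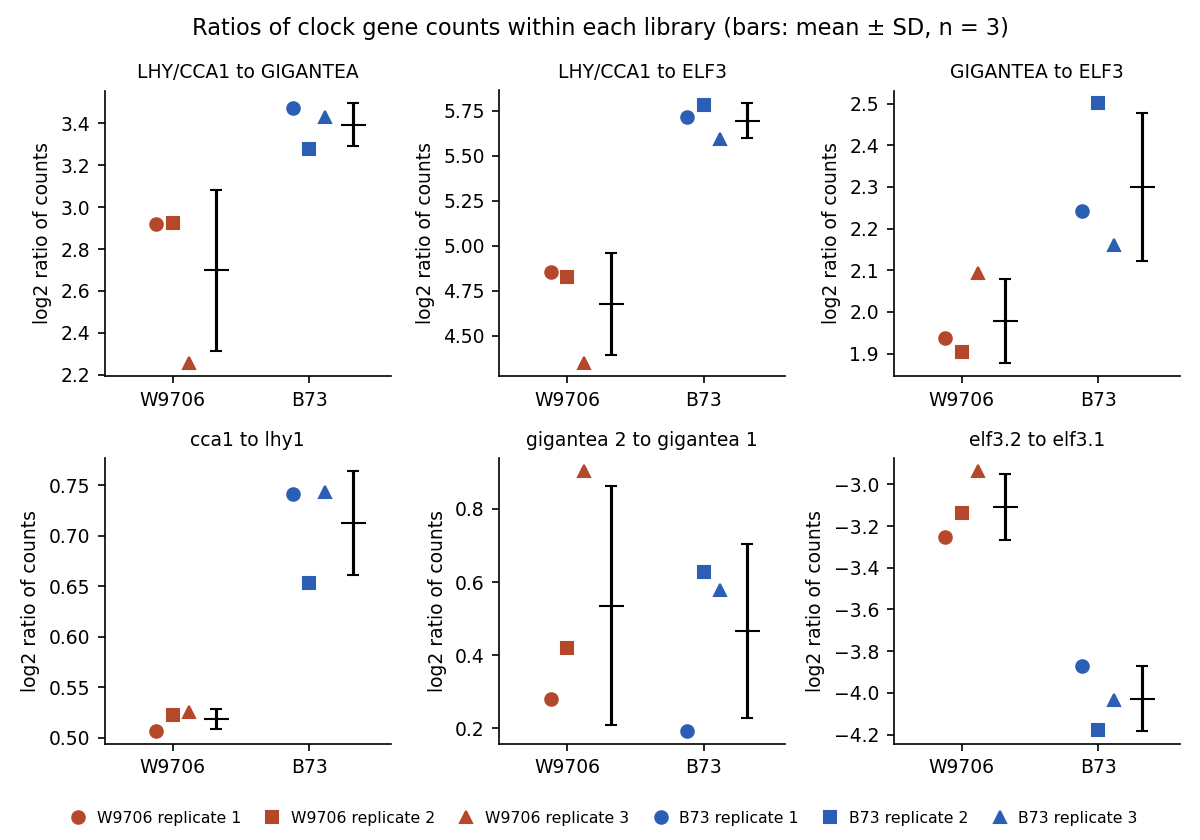
Log2 ratio of counts within each library (y axes, which do not start at zero) for the 3 ratios between gene pairs (top) and the 3 within pairs (bottom), in W9706 (left, red) and B73 (right, blue), with black bars for the mean and SD. The lines overlap in the ratio of gigantea 2 to gigantea 1 alone, and W9706 replicate 3 has the lowest ratio of LHY/CCA1 to GIGANTEA, at 2.26. The 3 ratios between gene pairs share terms, so they are not independent. Ratios of other genes were not examined, and 50.6% of single genes tested did not overlap between the lines.

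Libraries of the same line differed in the clock genes too. Relative to the mean log2 CPM of the other 2 libraries of its line, W9706 replicate 3 was at -0.45 for lhy1 and -0.43 for cca1, and at 0.44 for gigantea 2 and 0.28 for elf3.2. The median size of this deviation over all genes tested was 0.20 in that library, and 21.9% of genes deviated more than lhy1. gigantea 1 did not go with gigantea 2 there, at -0.11, and elf3.1 stood at 0.03. The coefficient of variation of lhy1 was 17.4% in W9706 and 5.14% in B73, and that of cca1 was 16.9% in W9706 and 8.55% in B73 (n = 3 each). B73 replicate 2 was the low library for elf3.2, at -0.52, and for elf3.1, at -0.30. Within W9706, the 2 morning genes moved together in all 3 libraries. Their deviations were 0.31 and 0.29 in replicate 1, 0.14 and 0.14 in replicate 2, and the values above in replicate 3. In B73 lhy1 and cca1 also moved in the same direction in each library. There the deviations were 0.05 and 0.09 in replicate 1, -0.13 and -0.22 in replicate 2, and 0.08 and 0.13 in replicate 3. Each deviation is taken against the other 2 libraries, so those of a gene within a line are not independent. How often other pairs of genes move together in this way was not examined.

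**Figure D4:**
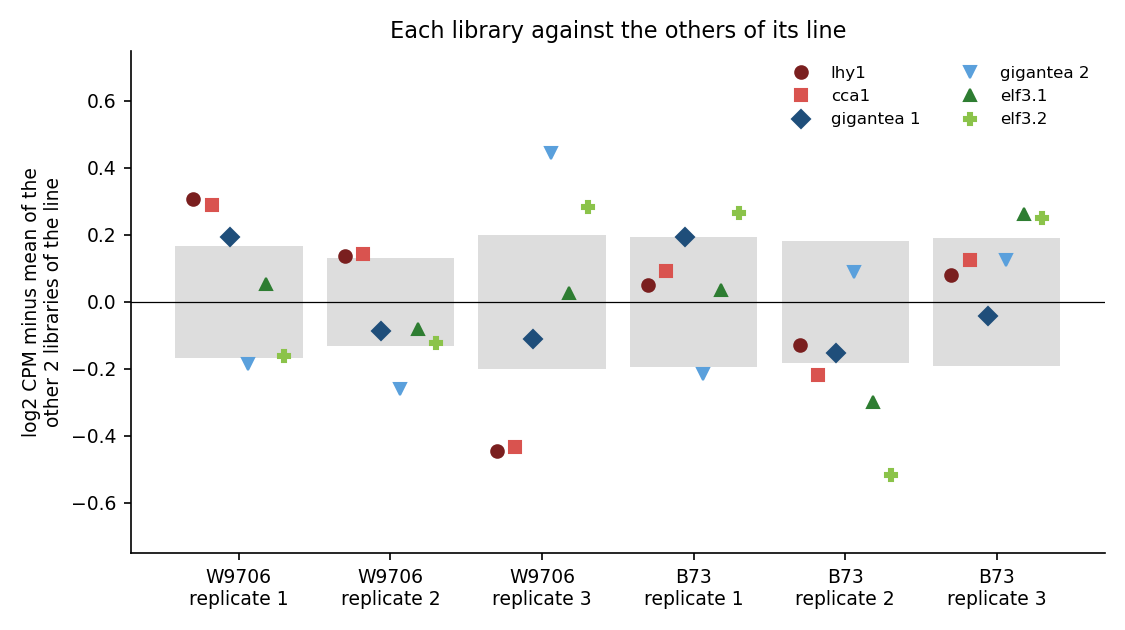
Log2 CPM of each clock gene in a library minus the mean of the other 2 libraries of the same line (y axis), by library, with grey bands for the median size of this deviation over all genes tested. In W9706 replicate 3 lhy1 and cca1 lie below the band and gigantea 2 and elf3.2 above it, and in the B73 libraries the morning genes stay in or near the band.

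Morning and evening genes can serve to compare the hour of harvest. During the light period a later hour goes with less LHY and CCA1 transcript and, until late in the day, more GIGANTEA transcript. The labels do not say whether harvest fell in the light period, so a direction in time cannot be read from these levels. The ratio of the morning genes to GIGANTEA, and that to ELF3, was lower in every W9706 library than in every B73 library. Both share the morning genes as their first term. The ratio of GIGANTEA to ELF3 was also lower in every W9706 library (log2 difference of -0.32). Each of these ratios had an exact permutation p of 0.1, the smallest possible, or 0.12 adjusted. Ratios of other genes were not examined, and no hourly course of ELF3 transcript was measured or assumed here. With TMM, lhy1 and cca1 passed the test as lower in W9706, while neither GIGANTEA gene passed and their log2 fold changes were -0.19 and -0.11. With library size alone lhy1 did not pass (log2 fold change of -0.43, edgeR adjusted p of 0.0678), cca1 did, and the GIGANTEA genes stood at 0.09 and 0.17. Within W9706, replicate 3 was low in both morning genes and high in gigantea 2, while its gigantea 1 level of 160 CPM stood beside 162 CPM in replicate 2. The labels give no hour of harvest, so line, hour of harvest and the water state of the plants cannot be told apart with these libraries.

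Among the 19982 other genes averaging 1 CPM or more, the patterns most like the summed level of lhy1 and cca1 over the 6 libraries were those of Zm00001d045138 (Pearson r of 0.9999 on log2 CPM) and Zm00001d021295 (0.9998). Zm00001d045138 averaged 7.19 ± 3.04 CPM in W9706, against 34.03 ± 6.01 CPM in B73, and Zm00001d021295 averaged 76.7 ± 18.7 CPM in W9706, against 178 ± 18.1 CPM in B73 (SD, n = 3 each). In all, 149 genes had an r above 0.99 with the morning genes. For the summed GIGANTEA level, which did not separate the lines, the nearest patterns were those of Zm00001d018502 and Zm00001d021360 (r of 0.997 and 0.996), and 6 genes had an r above 0.99. The points share libraries and the difference between lines, and neither the count tables nor the gene table used here give these 4 identifiers a name.

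Reads assigned to genes ranged from 25054048 to 32088105 in W9706 libraries and from 21084151 to 26631103 in B73 libraries. Correlations of log2 CPM were 0.970 to 0.985 within a line and 0.897 to 0.943 between lines, and W9706 replicate 3 was the farthest from the other W9706 libraries. Unmapped reads made up 13.0% to 13.5% of reads in W9706 and 12.7% to 13.8% in B73. Reads outside annotated genes made up 4.18% to 4.33% in W9706 and 3.68% to 3.79% in B73, and TMM factors were 1.10 to 1.11 in W9706 and 0.893 to 0.922 in B73, both without overlap. The identifiers carry the prefix used for B73 gene models, so W9706 reads that differ from that sequence could be lost, and the part of this in the lower lhy1 and cca1 counts, like that of these 2 measures, was not tested. Reads shared between the copies of a pair may not be counted, so the split within each pair is uncertain. The labels do not say whether replicates were separate plants, so the p-values reflect spread among these libraries that may be technical.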

How the data were processed

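Per the labels' protocols, RNA was extracted with TRIzol and a purification kit, treated with DNase, and made into libraries with a kit that does not mark strand. The deposited files hold raw counts per gene laid out as STAR writes them. The submitters' processing notes name STAR, with its version, build and annotation not given in the sources used here. The unstranded column was used, without the summary lines. Gene names of the 6 identifiers were taken from the definition of the gene group: neither the files nor the RefSeq gene table (0 identifiers with the prefix Zm00001d) pair them. Lists of other clock, light and tissue marker genes, fixed by symbol, therefore matched 0 members here, so the tissue was not checked by markers, and no sequences were used here. The genes and lists were chosen with earlier results of these data known. Named were the 6 genes and, per summed pair (LHY/CCA1, GIGANTEA), the 2 genes of highest r (log2 CPM, prior count 2).

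The test was that of edgeR 4.0.16 under R 4.3.3 (filterByExpr, 22135 genes kept; TMM; robust quasi-likelihood fit), checked on simulated data. SE is the absolute log2 fold change over the square root of F. Alternatives used DESeq2 1.42.0, other scalings, the strand columns, left-out libraries and a replicate block. Same-numbered libraries deviated together (correlations of 0.22, 0.11 and 0.13, each over a limit of 0.1). The main edgeR and permutation tests did not pair the libraries, and pairing by number was used only in alternatives such as the replicate block. The pairing is weak: of the 6 differently numbered pairs, W9706 replicate 3 with B73 replicate 2 reached 0.107 and the others -0.23 to 0.06, and the labels do not say what the numbers mark.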

Additional observations from a re-analysis of the deposited data

How the results depend on the processing

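Over 15 alternatives, 87 of 90 recomputed values of the 6 genes kept their direction and 85 both direction and call. lhy1, cca1 and elf3.2 kept theirs in all but 1 case. With library size alone lhy1 was at -0.43 (edgeR adjusted p of 0.0678), gigantea 1 at 0.093, gigantea 2 at 0.17 and elf3.1 at 0.38, past the threshold; 2 of the 6 genes were then higher and 1 lower, and over all genes 8165 were higher and 2622 lower. Without B73 replicate 2 and W9706 replicate 1 together, added after seeing the data, elf3.1 was at -0.0023 and 2240 genes were higher. The replicate block changed no call of the 6 genes (lhy1 at -0.72, edgeR adjusted p of 0.0175; cca1 at -0.92; elf3.2 at 1.02); for the ratios a paired sign-flip test over 3 pairs cannot go below 0.25. DESeq2 called the same number, 3 of 6. Leaving out a replicate gave log2 fold changes of -0.82 to -0.57 for lhy1 (adjusted p up to 0.0478, without W9706 replicate 2), -1.01 to -0.78 for cca1 and 0.87 to 1.11 for elf3.2, and 2070 (without W9706 replicate 2) to 2977 genes higher. Of the ratios, LHY/CCA1 to GIGANTEA ranged from -0.81 to -0.47 and gigantea 2 to gigantea 1 from -0.12 to 0.19.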
